A study of Homo sapiens with 16 samples.

Results

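HCC1806 and BT474 are established human breast cancer cell lines, and the data described here compare their 3D spheroids by RNA sequencing. The members are 8 of the 16 libraries of the series, chosen by title: 4 of HCC1806 and 4 of BT474. Each line has 2 libraries taken 10 days after seeding and 2 taken 20 days after seeding. No monolayer library and no library of the series' remaining lines entered any value below. Per the labels HCC1806 grew in RPMI 1640 and BT474 in DMEM, each with 10% fetal bovine serum, so cell line and medium cannot be told apart. One label gives 2D monolayers as the treatment of all 8 spheroid libraries, against their titles, and the titles were followed. The labels name no genotype, drug or transgene. Whether the 2 replicates of a group came from independent cultures is not given, so p-values measure only the spread between these libraries. Each line is a single tumour's descendant, so the comparison is between 2 lines and not between tumour subtypes.

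By general knowledge HCC1806 is a basal-type, triple-negative line with squamous features, and BT474 is a luminal line with amplified ERBB2 and hormone receptors. Basal breast epithelium rests on the basement membrane, carries keratins 5 and 14, the transcription factor p63 and hemidesmosomes, and can turn towards epidermis-like squamous differentiation. Luminal epithelium lines the milk ducts, carries keratins 8 and 18, depends on oestrogen receptor, FOXA1 and GATA3, and secretes mucus and milk-type proteins. A spheroid is a ball of cells grown without a flat support, in which diffusion limits the supply of oxygen and nutrients to the centre.

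The longest stretch of neighbouring tested genes that were all higher in HCC1806 lies in the epidermal differentiation complex of chromosome 1, which holds the genes of the cornified envelope of skin. Promoters of 4 of its genes are shown first, from RefSeq on GRCh38.p14, as the 140 bases before the transcription start on the coding strand, read 5′ to 3′. Capitals mark an AP-1 motif and a TATA box. They are chr1:152908406-152908545 (IVL, plus strand), chr1:152983941-152984080 (SPRR1A, plus), chr1:152325240-152325379 (FLG, minus) and chr1:152159229-152159368 (RPTN, minus).
IVL: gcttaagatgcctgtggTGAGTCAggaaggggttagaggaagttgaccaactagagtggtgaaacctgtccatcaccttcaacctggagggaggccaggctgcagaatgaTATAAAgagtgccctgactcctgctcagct
SPRR1A: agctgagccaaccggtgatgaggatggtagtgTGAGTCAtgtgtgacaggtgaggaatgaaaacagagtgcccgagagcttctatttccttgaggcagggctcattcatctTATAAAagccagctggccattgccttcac
FLG: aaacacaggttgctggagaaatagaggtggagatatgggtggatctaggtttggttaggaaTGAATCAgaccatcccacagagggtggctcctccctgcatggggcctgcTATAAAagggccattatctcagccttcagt
RPTN: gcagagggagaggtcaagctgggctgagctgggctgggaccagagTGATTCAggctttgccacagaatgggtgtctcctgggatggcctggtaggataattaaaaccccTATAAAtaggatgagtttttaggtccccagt
Counted back from the transcription start, the AP-1 motif begins at base -123 in IVL, -108 in SPRR1A, -79 in FLG and -95 in RPTN, and the TATA box at -30, -29, -30 and -31 in the same order. IVL encodes involucrin, SPRR1A a small proline-rich protein, FLG filaggrin and RPTN repetin, all building blocks of the cornified cell layer.

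For contrast, the 2 promoters below belong to secretory genes that had no count in any HCC1806 library: PIP, prolactin-induced protein (chr7:143131937-143132076, plus strand), and SCGB2A2, mammaglobin A (chr11:62270018-62270157, plus strand). Capitals mark the AP-1 motif, which begins at -83 in PIP and -79 in SCGB2A2, so the motif was found beside genes of either direction. All promoters shown carry this motif, which most promoters of either direction lack, as counted below.
PIP: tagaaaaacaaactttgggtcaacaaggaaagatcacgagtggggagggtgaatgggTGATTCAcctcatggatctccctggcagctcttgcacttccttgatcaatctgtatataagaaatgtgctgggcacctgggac
SCGB2A2: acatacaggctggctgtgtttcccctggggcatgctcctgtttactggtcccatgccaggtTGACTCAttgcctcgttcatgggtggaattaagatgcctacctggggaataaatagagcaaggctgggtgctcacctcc

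The motif search covered 250 bases before to 50 after each start, on both strands, in 15843 protein-coding promoters of the RefSeq table. The motifs searched were TGANTCA for AP-1, TATAAA for the TATA box, AACCNGTT for grainyhead factors, TGTTTAC for forkhead factors, AGATAA for GATA factors and the CCAAT box. An interferon element core was searched as GAAA repeated after a gap of 2 bases, and an oestrogen response element as GGTCA and its reverse complement with 3 bases between them. Matches of different motifs may overlap. Of the 37 adjacent tested chromosome 1 genes from RPTN to S100A9, 30 had a promoter in the table. TATAAA was present in 20 of these 30 (66.7%), against 9.63% of all promoters. TGANTCA was present in 10 (33.3%, against 5.75%), AGATAA in 5 (16.7%, against 7.57%), TGTTTAC in 5 (16.7%, against 2.61%) and AACCNGTT in 4 (13.3%, against 1.61%). CCAAT was found in 8 (26.7%, against 36.4%), the interferon element core in 1 (3.33%, against 3.17%) and the oestrogen response element in 0, against 0.0379%. The median ratio of observed to expected CpG was 0.117 in this stretch and 0.763 over all promoters. These genes lie side by side and include copies of each other, so their promoters are not independent, and a motif match is a description and not a binding site. A further count took protein-coding genes with a mean of at least 5 CPM in one line and 3 counts or fewer in the other. TGANTCA was present in 19 of 165 promoters of such HCC1806 genes (11.5%) and 4 of 32 of such BT474 genes (12.5%). Over promoters of all tested protein-coding genes its share was 5.16%.

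Expression is given in CPM, counts scaled to library size on the normalised scale. Where 4 values are given for a line they are day 10 replicates 1 and 2 and then day 20 replicates 1 and 2. Fold changes are log2 values of HCC1806 over BT474 with day as a covariate, with a standard error, and the adjusted p beside them tests whether the difference exceeds 2-fold. The standard error is the fold change, without sign, over the square root of the F statistic. Where a line had only a few counts it can understate counting error, so such folds are less precise than printed. Libraries totalled 34603785 to 40094050 counts for HCC1806 and 38230329 to 72489002 counts for BT474, and 3 counts correspond to 0.0443 to 0.0820 CPM. Intervals and lower bounds cover counting error only and treat every raw count as independent. Low counts were even more often than odd, which was not allowed for here. Intervals may therefore be too narrow and lower bounds too high. The first principal component held 92.6% of the variance and separated the lines. The second held 2.15%, and it placed HCC1806 day 10 libraries at 39.76 and 40.69 and HCC1806 day 20 libraries at -44.11 and -35.60, while the BT474 libraries lay between -1.78 and 3.30. KRT14, IFI16 and FOXQ1 had 0 counts in all BT474 libraries, and TFF1, TFF3 and PIP had 0 in all HCC1806 libraries.

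Of 20258 genes tested, 8536 were higher (42.1%) and 7463 lower (36.8%) in HCC1806 spheroids, 79% in all. Differences beyond 2-fold were called for 5133 higher genes (25.3%) and 3552 lower genes (17.5%), 42.9% in all, and these shares are the background for every count below. The 4 libraries of one line did not overlap with the 4 of the other for 74% of genes. Protein-coding genes with a mean of at least 5 CPM in one line and 0 counts in all libraries of the other numbered 167 in the direction of HCC1806 and 34 in the direction of BT474. With up to 3 counts allowed in the low line they numbered 236 and 50 in the same order. The median fold change over all genes was 0.10. Of all genes tested, 1014 had 0 counts in BT474 and 338 had 0 counts in HCC1806. Such a gene was tested only through the line that expresses it and could only be called higher there.

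Several genes at the extremes were present in one line and at 0 counts in the other, while others, such as AKR1C2 and KRT5, had trace counts in BT474. FOXQ1, a forkhead transcription factor, had 409, 399, 299 and 327 CPM in HCC1806 and 0 counts in BT474, at least 21743-fold higher. UGT1A10, a glucuronosyltransferase, averaged 223 CPM in HCC1806 and had 0 counts in BT474, UPK1B, a uroplakin of urothelium, averaged 142 CPM, and GDA, guanine deaminase, 145 CPM, both again with 0 counts in BT474. On the other side BRINP2, GRIK3, THNSL2, TOX3, CST2 and COLEC12 had 0 counts in HCC1806. In BT474 they averaged 72.4, 53.1, 45.4, 41.3, 34.8 and 30.9 CPM in that order. TOX3 is a chromatin protein at a breast cancer risk locus and GRIK3 a glutamate receptor subunit. CST2 has near-identical copies among the salivary cystatins. Among abundant genes higher in HCC1806, the endoplasmic reticulum chaperone HSP90B1 averaged 2103 ± 184 CPM in HCC1806 and 278 ± 22.8 CPM in BT474, and CALR, another, 1862 ± 305 CPM in HCC1806 and 698 ± 89.6 CPM in BT474. FTL, ferritin light chain, averaged 2489.6 ± 356 CPM in HCC1806 and 873 ± 35.7 CPM in BT474, TRIM28, a corepressor of repeats, 2105 ± 164 CPM in HCC1806 and 559 ± 34.2 CPM in BT474, and GPNMB, a membrane glycoprotein, 1954 ± 493 CPM in HCC1806 and 395 ± 21.7 CPM in BT474. ACTG1, gamma actin, was lower and averaged 1892 ± 176 CPM in HCC1806 and 4986 ± 429 CPM in BT474.

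Basal keratins were abundant in HCC1806 spheroids and at or near 0 in BT474 spheroids. KRT5, the type II keratin of basal epithelial cells (ENSG00000186081, GRCh38 chr12:52514575-52520687, minus strand), had 2631, 2396, 4447 and 5315 CPM in HCC1806 and 0, 0.0887, 0.109 and 0 CPM in BT474 (log2 fold change 15.87, SE 0.28, adjusted p = 3.3e-10). Its partner KRT14 had 493, 452, 1264 and 1255 CPM in HCC1806 and 0 counts in all 4 BT474 libraries, at least 52167-fold higher. For both genes the 2 HCC1806 day 20 libraries stood above the 2 day 10 libraries. KRT6A, a keratin of activated epithelium, had 784, 680.3, 1509 and 1318 CPM in HCC1806 and 0, 0.0591, 0.0547 and 0 CPM in BT474 (log2 fold change 14.77, SE 0.22, adjusted p = 3.6e-12), and KRT17 had 151, 132, 296 and 207 CPM in HCC1806 and 0.10, 0.0296, 0.0547 and 0.107 CPM in BT474 (log2 fold change 11.40, SE 0.22, adjusted p = 2.4e-11). The lines did not overlap for either. Reads of KRT6A, KRT6B and KRT6C can be split between near-identical copies. TP63, which encodes p63, the regulator of the basal lineage, had 506, 502, 604 and 591 CPM in HCC1806 and 2.40, 2.02, 3.28 and 3.54 CPM in BT474 (log2 fold change 7.65, SE 0.10, adjusted p = 9.6e-14). On the length-normalised FPKM scale KRT13 (972), KRT5 (835), KRT14 (368) and KRT6A (355) stood above KRT8 (63.8) and KRT18 (46.2) in HCC1806 spheroids. In BT474 spheroids the order was the opposite, with KRT8 at 482 and KRT18 at 221 FPKM and none of the other 4 above 0.0344.

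Of 30 basal and myoepithelial markers 28 were tested; 25 were higher and 2 lower in HCC1806 beyond 2-fold, with a median log2 fold change of 5.79. FOXC1, a transcription factor of basal breast cancer, averaged 99.3 ± 12.5 CPM in HCC1806 and 0.784 ± 0.132 CPM in BT474. CAV1, the coat protein of caveolae, averaged 147 ± 14.5 CPM in HCC1806 and 0.192 ± 0.101 CPM in BT474. TRIM29 averaged 1244 ± 91.0 CPM in HCC1806 and 10.7 ± 2.93 CPM in BT474. The exceptions were VIM and MYLK. VIM, the mesenchymal intermediate filament vimentin that many basal lines express, had 0, 0.0272, 0.191 and 0.050 CPM in HCC1806 and 33.0, 29.2, 25.9 and 24.3 CPM in BT474 (log2 fold change -8.69, SE 0.32, adjusted p = 1.5e-09). The HCC1806 values were all at trace level. OXTR, averaging 0.824 ± 0.194 CPM in HCC1806 and 1.28 ± 0.384 CPM in BT474, was not called beyond 2-fold.

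**Figure D1:**
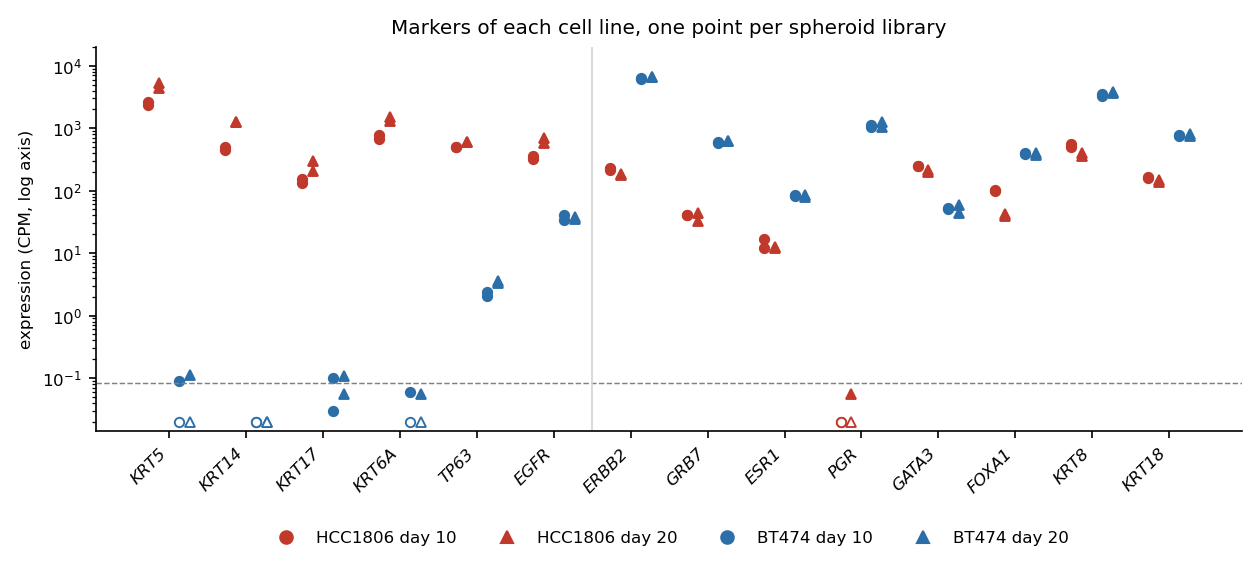
Expression of 14 marker genes in CPM (log axis), 1 point per spheroid library, HCC1806 in red at the left and BT474 in blue at the right of each gene, circles for day 10 and triangles for day 20. Open symbols at the bottom are libraries with 0 counts and the dashed line marks 3 counts in the shallowest library. The basal markers left of the grey line are higher in HCC1806 and the markers right of it higher in BT474, except GATA3, which averaged 227 CPM in HCC1806 and 52.0 CPM in BT474.

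Hormone receptors and their products were lower in HCC1806 spheroids. PGR, the progesterone receptor (ENSG00000082175, GRCh38 chr11:101029624-101130524, minus strand), had 0, 0, 0.0547 and 0 CPM in HCC1806, 2 counts in all, and 1030.0, 1109.6, 1062 and 1252 CPM in BT474. The ratio of BT474 to HCC1806 was 86107, with an exact 95% interval of 23836 to 711020. TFF1, a secreted trefoil peptide and classical oestrogen target, had 0 counts in all HCC1806 libraries and 1818, 2083, 1372 and 1489 CPM in BT474, at least 90830-fold lower in HCC1806. TFF3, a second trefoil peptide, had 0 counts in HCC1806 and 719, 819.9, 934 and 986 CPM in BT474, at least 44140-fold lower. ESR1, the oestrogen receptor itself, was not absent from HCC1806: it had 16.9, 12.2, 12.5 and 11.9 CPM there and 82.0, 83.6, 79.6 and 86.2 CPM in BT474 (log2 fold change -2.63, SE 0.10, adjusted p = 4.2e-09). FOXA1, the pioneer factor of luminal chromatin, had 100.5, 101, 42.1 and 39.5 CPM in HCC1806 and 397, 389, 403 and 372 CPM in BT474 (log2 fold change -2.60, SE 0.28, adjusted p = 0.000996). Within HCC1806 the 2 day 20 values of FOXA1 lay below the 2 day 10 values.

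Among 33 luminal and hormone receptor genes 32 were tested, with 22 lower and 3 higher in HCC1806 beyond 2-fold and a median of -2.89. PRLR, the prolactin receptor, averaged 0.111 ± 0.106 CPM in HCC1806 and 468 ± 44.2 CPM in BT474, SPDEF, an epithelial ETS factor, 0.107 ± 0.0903 CPM in HCC1806 and 429.6 ± 19.6 CPM in BT474, and GREB1, an oestrogen receptor cofactor, 1.53 ± 0.265 CPM in HCC1806 and 1304 ± 128 CPM in BT474. The luminal keratins were lower but still abundant in HCC1806: KRT8 had 550.5, 500.5, 354 and 405 CPM there and 3222, 3524, 3729 and 3788 CPM in BT474 (log2 fold change -2.99, SE 0.13, adjusted p = 2.6e-07), and KRT18 had 167, 159, 149.9 and 137 CPM in HCC1806 and 740.2, 779, 798 and 748 CPM in BT474 (log2 fold change -2.32, SE 0.06, adjusted p = 3.1e-10). KRT19, expressed along the ductal tree, averaged 2182 ± 434 CPM in HCC1806 and 2714 ± 144 CPM in BT474 and was not called beyond 2-fold. Members that went the other way were GATA3, EHF and KIT. GATA3, a master regulator of luminal cells, had 247, 247, 197 and 215 CPM in HCC1806 and 51.5, 52.4, 59.8 and 44.4 CPM in BT474 (log2 fold change 2.12, SE 0.09, adjusted p = 7.3e-08). KIT, the stem cell factor receptor known from luminal progenitors, had 42.5, 44.9, 49.3 and 58.8 CPM in HCC1806 and 0.10, 0.118, 0.0547 and 0.161 CPM in BT474 (log2 fold change 8.73, SE 0.17, adjusted p = 8.9e-13). For these 2 genes the lines did not overlap.

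ERBB2, the HER2 receptor tyrosine kinase (ENSG00000141736, GRCh38 chr17:39687914-39730426, plus strand), had 227, 217, 187 and 177 CPM in HCC1806 spheroids and 6077, 6263, 6587 and 6606 CPM in BT474 spheroids (log2 fold change -4.99, SE 0.08, adjusted p = 5e-13). Its neighbour GRB7, an adaptor protein of receptor signalling, had 40.0, 40.7, 44.0 and 32.4 CPM in HCC1806 and 605, 590.0, 633 and 634 CPM in BT474 (log2 fold change -3.97, SE 0.09, adjusted p = 1.1e-11). STARD3, a cholesterol carrier next to ERBB2, had 53.3, 61.1, 48.8 and 49.4 CPM in HCC1806 and 1012, 1079, 1056 and 1039 CPM in BT474 (log2 fold change -4.30, SE 0.07, adjusted p = 5e-13). All 8 libraries were separated by line for each of the 3 genes. IKZF3, a lymphoid transcription factor in the same block, had 2 counts in all HCC1806 libraries together and 167, 176, 149 and 150.1 CPM in BT474, a ratio of 12629 for BT474 over HCC1806 (exact 95% interval 3496 to 104290). Of 26 genes in and around the amplicon 19 were lower and 1 higher in HCC1806 beyond 2-fold, with a median of -3.82. Higher genes numbered 2 without HCC1806 day 10 replicate 2, HCC1806 day 20 replicate 2 or BT474 day 10 replicate 1. The 1 higher gene, NR1D1, the circadian repressor at the edge of the region, averaged 16.9 ± 2.89 CPM in HCC1806 and 4.76 ± 0.809 CPM in BT474. TOP2A, DNA topoisomerase II alpha, lies further along and averaged 258 ± 61.2 CPM in HCC1806 and 244 ± 13.4 CPM in BT474 and was not called.

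The lower region was wider than the ERBB2 block. In order along chromosome 17, 12 adjacent tested protein-coding genes from SRCIN1 to PLXDC1 (38530016 to 39154394) were all lower beyond 2-fold, with a median of -3.73. Next came 11 adjacent genes from PPP1R1B to ORMDL3 (39626740 to 39927601), ERBB2 among them, with a median of -4.48. A separate set of 22 genes from TEX14 to TBX2 (58556678 to 61409466) had a median of -2.45 and was the longest lower stretch in the genome. The first set holds LASP1, an actin-binding adaptor, with 408, 396, 306 and 316 CPM in HCC1806 and 6409, 6871, 6020.1 and 6104 CPM in BT474 (log2 fold change -4.17, SE 0.06, adjusted p = 3.3e-13). RPL23 lies in it too, and RPL19 lies close by. These 2 ribosomal protein genes were the only lower ones beyond 2-fold of 30 listed: RPL19 had 632, 618, 557 and 582 CPM in HCC1806 and 7689, 7781, 7705 and 7356 CPM in BT474 (log2 fold change -3.68, SE 0.05, adjusted p = 1.6e-13), and RPL23 averaged 553 ± 44.1 CPM in HCC1806 and 4170.2 ± 103 CPM in BT474. The other ribosomal genes had 4 calls upward, among them RPLP2, RPL11 and RPSA, and a list median of 0.38. RPSA lost its call without HCC1806 day 10 replicate 1 (1.07).

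**Figure D2:**
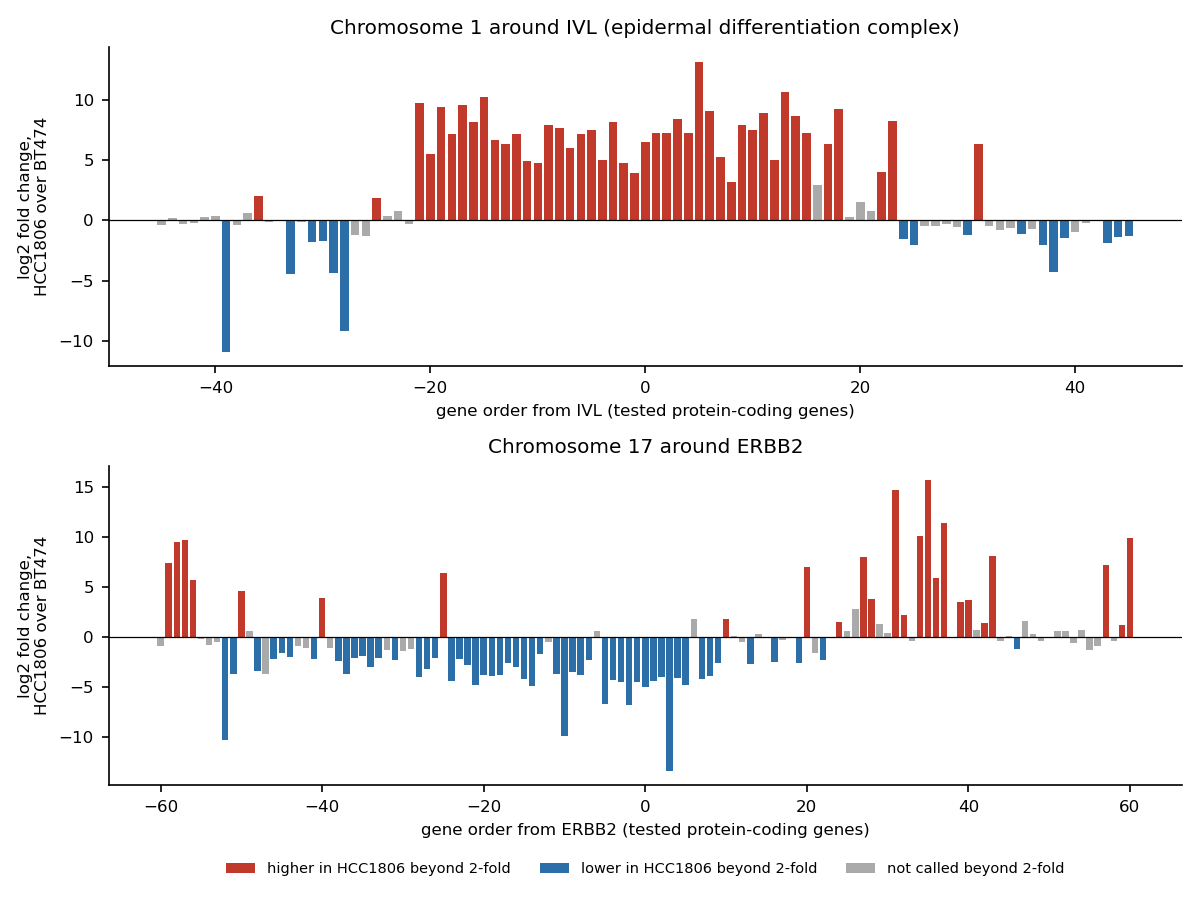
Log2 fold change of HCC1806 over BT474 spheroids for tested protein-coding genes in chromosomal order, counted in genes from IVL (top) and from ERBB2 (bottom). Red and blue bars are genes higher and lower in HCC1806 beyond 2-fold and grey bars genes not called; genes at 0 counts in 1 line are drawn at their lower bound. The top panel shows the unbroken red block of 37 genes on chromosome 1 and the bottom panel the blue blocks on chromosome 17, followed by red bars at the type I keratin genes.

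In the EGF receptor family the receptors split between the lines. EGFR (ENSG00000146648, GRCh38 chr7:55019021-55211628, plus strand) had 365, 318, 688 and 585 CPM in HCC1806 and 33.9, 40.6, 35.0 and 37.7 CPM in BT474 (log2 fold change 3.66, SE 0.22, adjusted p = 1.1e-05). ERBB3, the kinase-impaired partner of ERBB2, averaged 177 ± 21.7 CPM in HCC1806 and 302 ± 20.7 CPM in BT474, and ERBB4 averaged 2.64 ± 0.772 CPM in HCC1806 and 5.08 ± 0.797 CPM in BT474, and neither was called beyond 2-fold. On the FPKM scale EGFR stood at 37.9 in HCC1806 spheroids and 2.73 in BT474 spheroids, and ERBB2 at 19.0 in HCC1806 spheroids and 575 in BT474 spheroids. The ligands HBEGF, EREG and NRG1 were at or near 0 in BT474. HBEGF had 56.6, 57.0, 52.8 and 43.5 CPM in HCC1806 and 0.10, 0.118, 0.0820 and 0.0536 CPM in BT474 (log2 fold change 9.11, SE 0.15, adjusted p = 3.6e-13). EREG, epiregulin, had 52.5, 58.6, 111 and 123 CPM in HCC1806 and 0.551, 0.0887, 0.191 and 0.268 CPM in BT474 (log2 fold change 8.30, SE 0.31, adjusted p = 5.8e-08). NRG1, the ligand of ERBB3 and ERBB4, had 10.8, 12.4, 26.0 and 17.5 CPM in HCC1806 and 0 counts in BT474, at least 997-fold higher. AREG, amphiregulin, an oestrogen target in breast epithelium, went the other way with 3.82, 4.14, 4.40 and 3.17 CPM in HCC1806 and 16.9, 17.4, 10.4 and 8.81 CPM in BT474 (log2 fold change -1.74, SE 0.18, adjusted p = 0.000415). Of 21 receptors, ligands and feedback genes, 10 were higher and 4 lower beyond 2-fold; LRIG1, a feedback inhibitor of EGF receptors, was among the lower ones and averaged 7.40 ± 0.611 CPM in HCC1806 and 106 ± 1.30 CPM in BT474.

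Squamous differentiation genes were higher in HCC1806 for most members. Of 50 genes 48 were tested, 39 higher and 1 lower in HCC1806 beyond 2-fold, with a median of 6.52 (6.14 with genes at 0 counts set to their bound). KRT13, a keratin of stratified mucosa, had 3482, 3362, 2068 and 2765 CPM in HCC1806 and 0.150, 0.118, 0.109 and 0.0536 CPM in BT474 (log2 fold change 14.70, SE 0.16, adjusted p = 9.6e-14). SPRR1B, a cornified envelope precursor, had 169.8, 147, 378 and 285 CPM in HCC1806 and 0.0501, 0, 0.0547 and 0 CPM in BT474 (log2 fold change 13.16, SE 0.26, adjusted p = 3.7e-11). The precursor involucrin, whose promoter is shown above, had 89.2, 86.6, 153 and 126 CPM for IVL in HCC1806 and 0.901, 1.40, 0.848 and 1.71 CPM in BT474 (log2 fold change 6.46, SE 0.20, adjusted p = 4.4e-09). FLG, filaggrin of the granular layer, had 9.59, 7.41, 40.7 and 15.3 CPM in HCC1806 and 0, 0.0296, 0 and 0.0536 CPM in BT474 (log2 fold change 9.35, SE 0.60, adjusted p = 1.2e-06), and its HCC1806 day 20 replicate 1 stood far above the other 3 libraries of that line. KRT1, a keratin of the upper epidermal layers, had 51.0, 46.4, 749.9 and 791 CPM in HCC1806 and 0.0501, 0.0591, 0.0547 and 0.482 CPM in BT474 (log2 fold change 11.16, SE 0.28, adjusted p = 2.8e-09). The HCC1806 day 20 values of KRT1 were all more than an order of magnitude above the day 10 values. KRT10, its partner, averaged 147 ± 71.7 CPM in HCC1806 and 44.9 ± 1.05 CPM in BT474 (log2 fold change 1.56, SE 0.26, adjusted p = 0.0266), a call lost without either HCC1806 or either BT474 day 20 library (1.40 to 1.43). Enzymes of the cornified layer were also called: TGM1, transglutaminase 1, averaged 4.21 ± 2.45 CPM in HCC1806 and 0.976 ± 0.406 CPM in BT474 and ALOX12B 2.93 ± 1.70 CPM in HCC1806 and 0.367 ± 0.194 CPM in BT474. TGM1 lost its call without BT474 day 20 replicate 1 (1.66) or 2 (1.60). GRHL1, a grainyhead factor, was the lower member, with 24.3 ± 5.44 CPM in HCC1806 and 88.4 ± 2.06 CPM in BT474 (log2 fold change -1.89, SE 0.11, adjusted p = 3.6e-06), while GRHL3 averaged 46.5 ± 3.66 CPM in HCC1806 and 1.02 ± 0.320 CPM in BT474. CALML5, KRT80, ABCA12, ZNF750, CASP14, KRT2, TGM3 and S100A12 were not called.

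The chromosome 1 stretch from RPTN to S100A9 (152153595 to 153361027) held 37 adjacent tested protein-coding genes, all higher in HCC1806 beyond 2-fold, with a median of 9.05 (7.20 with genes at 0 counts set to their bound). It was the longest such stretch of tested genes in the genome. Genes too low in both lines to be tested were skipped, here and in the other stretches. A member at 0 counts in BT474 was tested only through HCC1806 and could only be called higher. The length of an unbroken stretch therefore depends partly on the count filter. SPRR1A had 41.1, 36.4, 85.6 and 52.0 CPM in HCC1806 and 0.0250, 0.266, 0.109 and 0.107 CPM in BT474, RPTN 14.5, 13.5, 20.6 and 8.67 CPM in HCC1806 and 0 counts in BT474, and SPRR2A 0.240, 0.109, 1.26 and 0.950 CPM in HCC1806 and 0 counts in BT474. S100A9, a calcium-binding alarmin at its end, had 59.5, 51.0, 100.2 and 55.8 CPM in HCC1806 and 0.350, 0.532, 0.711 and 0.107 CPM in BT474 (log2 fold change 7.20, SE 0.38, adjusted p = 2e-06). Members of the LCE and SPRR families are near-identical copies, so reads may be shared among them. Another set of 13 adjacent genes on chromosome 18, from SERPINB5 to CDH19 (63476761 to 66604138), was higher throughout, with a median of 9.58 (8.66 with genes at 0 counts set to their bound). It holds the squamous cell carcinoma antigens SERPINB3 and SERPINB4, which averaged 15.1 and 18.5 CPM in HCC1806 and had 0 counts in BT474.

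Desmosomes, the spot junctions of epithelia, differed in their skin-type members. Of 14 genes 7 were higher and 0 lower beyond 2-fold. DSG3, the desmoglein of basal keratinocytes, had 104, 97.8, 235 and 212 CPM in HCC1806 and 0 counts in BT474, at least 9762-fold higher. DSC3 had 337, 309, 611 and 580.2 CPM in HCC1806 and 0.551, 0.857, 0.465 and 0.348 CPM in BT474 (log2 fold change 9.48, SE 0.30, adjusted p = 8.2e-08), and PKP1, plakophilin 1, averaged 825 ± 253 CPM in HCC1806 and 25.7 ± 5.34 CPM in BT474. The general members DSG2, DSC2, JUP, DSP, PKP2, PKP3 and PKP4 were not called; DSP, desmoplakin, averaged 1360.1 ± 681 CPM in HCC1806 and 736 ± 83.7 CPM in BT474. Of 19 tight junction genes tested 4 were higher and 4 lower. CLDN1 had 414, 456, 699 and 718 CPM in HCC1806 and 0.0501, 0.0591, 0.0547 and 0 CPM in BT474 (log2 fold change 13.50, SE 0.17, adjusted p = 9.6e-14), whereas CLDN3 averaged 5.44 ± 0.650 CPM in HCC1806 and 111 ± 11.1 CPM in BT474 and CLDN4 187 ± 37.4 CPM in HCC1806 and 683 ± 31.8 CPM in BT474. CDH1, E-cadherin, had 289, 262, 213 and 202 CPM in HCC1806 and 806, 841, 713 and 729 CPM in BT474 (log2 fold change -1.69, SE 0.06, adjusted p = 6.3e-08), and CDH3, P-cadherin of basal cells, averaged 163 ± 5.68 CPM in HCC1806 and 45.8 ± 3.58 CPM in BT474 (log2 fold change 1.83, SE 0.06, adjusted p = 1.5e-08). Among the regulators of mesenchymal change, SNAI2 averaged 64.3 CPM in HCC1806 with 0 counts in BT474, at least 3887-fold higher, while SNAI1, TWIST1 and ZEB1 were not called and averaged at most 12 CPM in HCC1806 and 15.1 CPM in BT474.

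Basement membrane receptors and proteins were higher in HCC1806. Of 24 integrin and laminin genes tested 20 were higher and 1 lower beyond 2-fold, with a median of 4.05 (3.78 with genes at 0 counts set to their bound). LAMB3, a chain of laminin 332, the anchoring protein of hemidesmosomes, had 1399.5, 1266, 1261 and 1112 CPM in HCC1806 and 11.2, 11.8, 12 and 9.96 CPM in BT474 (log2 fold change 6.81, SE 0.09, adjusted p = 9.6e-14), and the chain LAMA3 averaged 91.7 ± 13.5 CPM in HCC1806 and 5.65 ± 0.867 CPM in BT474. Their receptor chain ITGA6 averaged 1203 ± 152 CPM in HCC1806 and 24.3 ± 0.394 CPM in BT474, and its partner ITGB4 969.7 ± 148 CPM in HCC1806 and 56.9 ± 4.30 CPM in BT474. COL17A1, the hemidesmosomal collagen, had 614, 596, 674 and 674 CPM in HCC1806 and 9.56, 10.2, 15.3 and 19.9 CPM in BT474 (log2 fold change 5.59, SE 0.16, adjusted p = 6.6e-09). Of 25 collagen and matrix genes 19 were higher and 2, TNC and ECM1, lower. NID1, nidogen, which links laminin to collagen IV, averaged 127 CPM in HCC1806 and had 2 counts in all BT474 libraries, a ratio of 11559 (exact 95% interval 3199.5 to 95454). COL4A1 averaged 85.0 ± 14.9 CPM in HCC1806 and 0.652 ± 0.251 CPM in BT474. Matrix proteases and their inhibitors were higher together, 19 of 23 with 1 lower and a median of 6.60; 2 were lower without any 1 of the 4 day 10 libraries. PLAU, urokinase, had 159, 154, 158 and 127 CPM in HCC1806 and 0.0501, 0.0296, 0.164 and 0.0536 CPM in BT474 (log2 fold change 11.09, SE 0.19, adjusted p = 9.1e-13). MMP14, a membrane-bound collagenase, averaged 337 ± 26.0 CPM in HCC1806 and 0.253 ± 0.119 CPM in BT474, and TIMP3, a metalloprotease inhibitor bound to matrix, averaged 409 ± 12.2 CPM in HCC1806 and 0.0467 ± 0.0452 CPM in BT474. MMP10, stromelysin 2, had 0.962, 1.03, 28.8 and 18.2 CPM in HCC1806 and 0 counts in BT474, and its day 20 values stood well above its day 10 values. Of 11 kallikrein-related peptidases tested 8 were higher and KLK12 was lower; KLK5, a protease of the skin surface, averaged 33.7 ± 16.1 CPM in HCC1806 and 0.282 ± 0.193 CPM in BT474 and KLK12 0.237 ± 0.154 CPM in HCC1806 and 27.8 ± 5.88 CPM in BT474.

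Interferon-stimulated genes were higher in HCC1806 spheroids as a list: 34 of 38 were higher and 0 lower beyond 2-fold, with a median of 4.42. These genes encode antiviral proteins, and their basal level in tumour lines without added interferon is known to vary. IFI16, a DNA sensor, had 174, 191, 144 and 143 CPM in HCC1806 and 0 counts in BT474, at least 9873-fold higher. OAS1, an RNA-sensing synthetase, had 338, 354, 211 and 217 CPM in HCC1806 and 5.31, 5.99, 4.13 and 4.63 CPM in BT474 (log2 fold change 5.78, SE 0.09, adjusted p = 2e-13), MX1, an antiviral GTPase, 213, 231, 109 and 124 CPM in HCC1806 and 7.99, 7.30, 3.28 and 3.13 CPM in BT474 (log2 fold change 5.00, SE 0.09, adjusted p = 7.3e-13), and IFI27 228, 241, 135 and 111 CPM in HCC1806 and 0.851, 0.695, 0.629 and 0.536 CPM in BT474 (log2 fold change 8.07, SE 0.13, adjusted p = 2.7e-13). In HCC1806 the day 20 values of all 4 genes lay below the day 10 values, as did those of OAS1, MX1 and IFI27 in BT474, and the lines did not overlap. USP18, IRF7, IFI35 and IFIH1 were not called. On chromosome 10, 10 adjacent genes from STAMBPL1 to SLC16A12 (88879734 to 89556641) that include IFIT1, IFIT2, IFIT3, IFIT5 and FAS were all higher, with a median of 5.31.

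Class I antigen presentation genes were higher for 13 of 18 members, with 0 lower. HLA-B, a classical class I heavy chain, had 464, 434, 348 and 324 CPM in HCC1806 and 25.3, 26.4, 16.1 and 16.7 CPM in BT474 (log2 fold change 4.23, SE 0.07, adjusted p = 5e-13). HLA-C averaged 258 ± 56.0 CPM in HCC1806 and 381 ± 48.0 CPM in BT474 and was not called beyond 2-fold, so these HLA genes differed unequally. B2M, their shared light chain, had 2276, 2336, 1508 and 1505 CPM in HCC1806 and 238, 256, 176 and 181 CPM in BT474 (log2 fold change 3.15, SE 0.06, adjusted p = 1.5e-12). HLA genes are highly variable between people, and how far each line's alleles match the reference sequence, which bears on counts of HLA-B, was not tested. Of 10 class II genes tested 6 were higher and 1 lower. CD74, the invariant chain, averaged 68.2 ± 11.9 CPM in HCC1806 and 0.300 ± 0.229 CPM in BT474 and HLA-DRA 2.57 ± 1.09 CPM in HCC1806 and 0.0694 ± 0.0861 CPM in BT474. Of 29 chemokines and cytokines tested 24 were higher and 4 lower. Here 8 of the 29 had 0 counts in BT474 and 1 had 0 counts in HCC1806, so their direction was fixed beforehand. IL1A and IL1B averaged 6.45 and 4.79 CPM in HCC1806, with 0 counts in BT474. CXCL14 had 4.47, 3.02, 540.2 and 662 CPM in HCC1806 and 0.0501, 0, 0.0547 and 0 CPM in BT474 (log2 fold change 13.25, SE 0.49, adjusted p = 1.4e-07), so that its level in HCC1806 rested almost wholly on day 20. CXCL12, the ligand of CXCR4, was on the opposite side and averaged 0.0785 ± 0.0653 CPM in HCC1806 and 60.4 ± 6.51 CPM in BT474, as did CXCR4 itself with 0.0940 ± 0.122 CPM in HCC1806 and 25.2 ± 5.5 CPM in BT474.

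**Figure D3:**
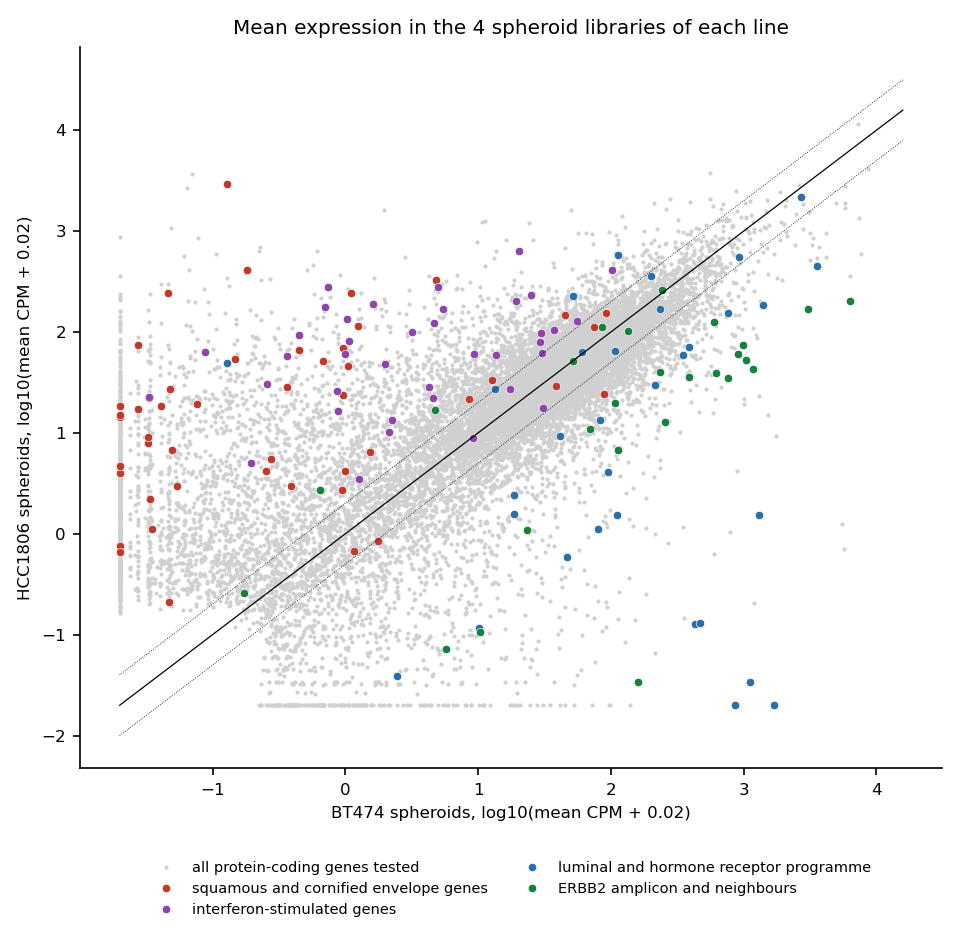
Mean expression of protein-coding genes in the 4 HCC1806 spheroid libraries against the 4 BT474 spheroid libraries, both as log10 of CPM plus 0.02, with the line of equality and dotted lines at 2-fold. Squamous (red) and interferon-stimulated genes (purple) lie mainly above the line, 39 of 48 and 34 of 38 being higher beyond 2-fold, and luminal (blue) and ERBB2 amplicon genes (green) mainly below it, 22 of 32 and 19 of 26 being lower.

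Detoxifying reductases were among the largest differences. AKR1C2, an aldo-keto reductase of steroids and carbonyls, had 3486, 3442, 1908 and 1887 CPM in HCC1806 and 0, 0.0148, 0 and 0.161 CPM in BT474 (log2 fold change 16.03, SE 0.34, adjusted p = 3.3e-09). ALDH3A1, an aldehyde dehydrogenase, had 299.6, 276, 143 and 148 CPM in HCC1806 and 0 counts in BT474, at least 13179-fold higher. GSTP1, a glutathione transferase, had 807, 745, 625 and 629 CPM in HCC1806 and 0.10, 0.296, 0.164 and 0.268 CPM in BT474 (log2 fold change 11.65, SE 0.14, adjusted p = 9.6e-14). AKR1C1, AKR1C2 and AKR1C3 are near-identical copies and may share reads, and UGT1A10 shares its last exons with its gene family. NRF2 targets as a list were more often higher than lower, though not throughout: 17 of 27 were higher and 2 lower, with a median of 1.69. NQO1, the textbook NRF2 target, averaged 154 ± 32.2 CPM in HCC1806 and 225 ± 28.7 CPM in BT474 and was not called beyond 2-fold. GSR, glutathione reductase, was lower and averaged 55.3 ± 5.89 CPM in HCC1806 and 233 ± 6.27 CPM in BT474. Other drug-handling genes gave 9 higher and 4 lower of 34: CDA, cytidine deaminase, averaged 15.1 ± 1.74 CPM in HCC1806 and 0.0296 ± 0.0264 CPM in BT474. TOP1, TOP2B, TUBB and PARP1 were not called. Among 19 ABC transporters 6 were higher and 2 lower; ABCC11 averaged 0.126 ± 0.0951 CPM in HCC1806 and 75.0 ± 11.9 CPM in BT474, ABCC1 156 ± 15.6 CPM in HCC1806 and 62.5 ± 4.81 CPM in BT474, and the drug pumps ABCB1 and ABCG2 averaged under 1.5 CPM in both lines and were not called.

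Protein-coding transcripts of the mitochondrial genome took a smaller share of counts in HCC1806. The share of all counts was 0.701%, 1.87%, 1.65% and 1.93% in HCC1806 and 4.58%, 3.04%, 5.20% and 4.08% in BT474, with HCC1806 day 10 replicate 1 the lowest. MT-CO2, a cytochrome oxidase subunit, had 577, 1834, 1373 and 1679 CPM in HCC1806 and 8323, 5354, 8689 and 7129 CPM in BT474 (log2 fold change -2.44, SE 0.40, adjusted p = 0.00895). Of 13 mitochondrially encoded proteins 6 were lower beyond 2-fold and 0 higher, with a median of -1.73. Leaving out 1 library changed that count: it was 3 without HCC1806 day 20 replicate 1, HCC1806 day 20 replicate 2, BT474 day 10 replicate 1 or BT474 day 20 replicate 1, and at most 9 in any such fit. Nuclear respiratory chain genes had 12 lower and 1 higher of 30 and a median of -0.96. COX6C averaged 77.7 ± 5.46 CPM in HCC1806 and 197 ± 15.1 CPM in BT474, ATP5MC1 36.4 ± 2.01 CPM in HCC1806 and 368 ± 12.7 CPM in BT474, and SDHD, the higher one, 95.3 ± 6.15 CPM in HCC1806 and 32.6 ± 2.57 CPM in BT474. ATP5MC1 lies on chromosome 17 and COX8A in a lower stretch of chromosome 11.

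Fatty acid synthesis genes were lower in HCC1806 for 10 of 20 members and higher for 3. FASN, fatty acid synthase, had 839, 649.6, 814 and 609.6 CPM in HCC1806 and 3256, 3923, 2802 and 3030.4 CPM in BT474 (log2 fold change -2.15, SE 0.13, adjusted p = 7.1e-06). SCD, the stearoyl-CoA desaturase, averaged 956 ± 337 CPM in HCC1806 and 3144 ± 537 CPM in BT474, ACACA, acetyl-CoA carboxylase, 144 ± 29.7 CPM in HCC1806 and 732 ± 84.4 CPM in BT474, and FADS2, a fatty acid desaturase, 21.7 ± 5.81 CPM in HCC1806 and 1004 ± 41.6 CPM in BT474. ACACA lies on chromosome 17, 38 tested protein-coding genes before ERBB2. FABP5, a fatty acid-binding protein of skin, was higher and averaged 268 ± 124 CPM in HCC1806 and 6.76 ± 0.991 CPM in BT474, and FABP4, its relative known from fat cells, had 69.4, 63.4, 369 and 324 CPM in HCC1806 and 0 counts in BT474, at least 12372-fold higher. Cholesterol synthesis had 6 lower and 3 higher of 22. In glycolysis 6 of 22 genes were higher and 2 lower. SLC16A1, the lactate transporter MCT1, averaged 68.2 ± 6.54 CPM in HCC1806 and 1.26 ± 0.132 CPM in BT474, ALDOC 44.0 ± 9.56 CPM in HCC1806 and 0.417 ± 0.189 CPM in BT474, and HK2, hexokinase 2, was lower with 21.8 ± 5.43 CPM in HCC1806 and 154 ± 37.3 CPM in BT474. GAPDH, PKM, ENO1 and LDHA were not called beyond 2-fold. Hypoxia-response genes had 15 higher and 3 lower of 28, with 1 lower without BT474 day 10 replicate 1 or 2. NDRG1 averaged 1106 ± 92.2 CPM in HCC1806 and 128 ± 55.5 CPM in BT474 and EPAS1, which encodes HIF-2 alpha, 446 ± 54.6 CPM in HCC1806 and 37.5 ± 11.2 CPM in BT474. CA9, carbonic anhydrase IX, had 0.505, 0.708, 2.79 and 0.425 CPM in HCC1806 and 0, 0.133, 0 and 0.0536 CPM in BT474, a low level in both.

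Most proliferation genes were not called beyond 2-fold. Of 27 mitosis genes 2 were higher and 2 lower beyond 2-fold, and of 24 replication genes 0 were higher and 5 lower. These 5 are 20.8% of the replication list, against 17.5% of all genes. At any size 14 mitosis genes were higher and 7 lower, and 2 replication genes were higher and 17 lower. Over all genes the shares at any size were 42.1% higher and 36.8% lower. MKI67, the Ki-67 antigen, had 365, 239, 341 and 210.5 CPM in HCC1806 and 75.7, 84.3, 66.4 and 72.8 CPM in BT474 (log2 fold change 1.95, SE 0.19, adjusted p = 0.000555), whereas TOP2A averaged 258 ± 61.2 CPM in HCC1806 and 244 ± 13.4 CPM in BT474, CCNB1 80.8 ± 10.0 CPM in HCC1806 and 92.3 ± 2.27 CPM in BT474 and CDK1 69.4 ± 7.07 CPM in HCC1806 and 79.6 ± 5.57 CPM in BT474. AURKA, a mitotic kinase on chromosome 20, was lower in HCC1806 and averaged 47.7 ± 4.06 CPM in HCC1806 and 266 ± 9.29 CPM in BT474. The cell cycle inhibitors CDKN2A and CDKN2B, neighbours on chromosome 9, had 0 counts in all HCC1806 libraries. CDKN2A had 8.84, 8.53, 9.21 and 8.57 CPM in BT474 and CDKN2B 3.93, 4.77, 3.80 and 3.78 CPM in BT474, at least 451-fold and at least 216-fold lower in HCC1806. MTAP, the next gene, averaged 16.5 ± 1.30 CPM in HCC1806 and 19.9 ± 1.76 CPM in BT474 and was not called. CDKN1A, the cell cycle inhibitor p21, averaged 139 ± 25.0 CPM in HCC1806 and 17.3 ± 3.20 CPM in BT474 (log2 fold change 3.00, SE 0.18, adjusted p = 3.8e-06). FAS, the death receptor, averaged 11.1 CPM in HCC1806 with 0 counts in BT474. Of 18 BCL2 family genes tested 1 was higher and 5 lower, among them BBC3 and PMAIP1; BCL2L1 and MCL1 were not called.

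Breast cancer stem cells are often gated as CD44 high and CD24 low, and these 2 surface markers differed in opposite directions between the lines. CD44, the hyaluronan receptor, had 1404, 1338, 1956 and 1739 CPM in HCC1806 and 44.2, 53.2, 49.7 and 53.8 CPM in BT474 (log2 fold change 4.98, SE 0.10, adjusted p = 4.7e-12). CD24 had 277, 289, 353 and 382 CPM in HCC1806 and 1948, 1918, 1963 and 2008 CPM in BT474 (log2 fold change -2.60, SE 0.07, adjusted p = 1.9e-10). ALDH1A3, the retinal dehydrogenase behind the ALDH assay in many breast lines, had 164, 151, 131 and 107 CPM in HCC1806 and 1.40, 1.27, 1.37 and 1.15 CPM in BT474 (log2 fold change 6.75, SE 0.11, adjusted p = 3.6e-13). ALDH1A1 averaged 78.9 ± 19.6 CPM in HCC1806 and 10.7 ± 1.87 CPM in BT474, and MYC 197 ± 18.0 CPM in HCC1806 and 88.1 ± 6.51 CPM in BT474; the call of MYC was lost without HCC1806 day 10 replicate 1 (1.11), HCC1806 day 20 replicate 1 (1.04) or BT474 day 20 replicate 1 (1.10). SOX9 was lower, averaging 11.1 ± 4.33 CPM in HCC1806 and 76.6 ± 9.43 CPM in BT474, and SOX2 higher, averaging 25.5 ± 4.34 CPM in HCC1806 and 5.46 ± 1.42 CPM in BT474, while PROM1, which encodes CD133, and EPCAM were not called. Of 21 stem cell and pluripotency markers tested 12 were higher and 3 lower. These values describe RNA of whole spheroids, in which fewer cells of a type and less RNA per cell cannot be told apart.

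Signalling genes of the niche were more often higher than lower in HCC1806. In the Notch pathway 10 of 21 were higher and HEY2 was lower; NOTCH1 had 303, 248, 295 and 306 CPM in HCC1806 and 23.3, 29.9, 25.7 and 23.6 CPM in BT474 (log2 fold change 3.49, SE 0.10, adjusted p = 3.4e-10), and its ligand JAG1 averaged 167 ± 29.6 CPM in HCC1806 and 1.84 ± 0.270 CPM in BT474. In the Wnt pathway 19 of 28 were higher and LEF1, SP5 and RNF43 were lower. WNT10A, a ligand of skin appendages, had 273, 263, 199 and 217 CPM in HCC1806 and 0 counts in BT474, at least 14450-fold higher. AXIN2, a feedback target, averaged 26.1 ± 11.9 CPM in HCC1806 and 0.610 ± 0.0669 CPM in BT474, whereas LEF1, a nuclear effector, averaged 0.222 ± 0.182 CPM in HCC1806 and 9.56 ± 1.15 CPM in BT474. YAP/TAZ targets had 15 higher and 0 lower of 23, with AMOTL2 at 122 ± 17.7 CPM in HCC1806 and 25.3 ± 2.18 CPM in BT474 and CYR61 not called at 10.8 ± 3.34 CPM in HCC1806 and 8.79 ± 0.937 CPM in BT474. In the BMP and TGF-beta pathway 15 were higher and 7 lower of 28. ID1, a BMP target, had 812, 785, 786 and 771 CPM in HCC1806 and 4.83, 5.87, 27.6 and 0.991 CPM in BT474, with 1 BT474 library above the other 3. BMP2 averaged 31.3 CPM in HCC1806 with 0 counts in BT474, while BMP7 averaged 27.5 ± 16.8 CPM in HCC1806 and 519.6 ± 24.7 CPM in BT474 and the decoy receptor BAMBI 5.32 ± 0.693 CPM in HCC1806 and 233 ± 11.9 CPM in BT474.

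Secreted products divided the lines. PIP, whose promoter is shown above, had 0 counts in HCC1806 and 140.4, 149, 134 and 135 CPM in BT474, at least 7299-fold lower in HCC1806. SCGB2A2 had 0 counts in HCC1806 and 126, 122, 61.9 and 80.5 CPM in BT474, at least 5288-fold lower, and MUCL1, a small breast mucin, averaged 0.185 ± 0.173 CPM in HCC1806 and 1209 ± 162 CPM in BT474. Of 14 apocrine and milk-type genes tested 7 were lower and 4, WFDC2, LCN2, SLPI and CST6, higher. Here 4 of the 14 had 0 counts in HCC1806 and 1 had 0 counts in BT474, so their direction was fixed beforehand. LCN2, lipocalin 2, averaged 92.2 ± 29.2 CPM in HCC1806 and 2.88 ± 0.548 CPM in BT474. Of 17 genes of the insulin-like growth factor axis tested 11 were higher and 3 lower, with a median of 3.48. Its binding proteins include IGFBP3 and IGFBP5. IGFBP3 had 1983, 1978, 1296 and 1224 CPM in HCC1806 and 0.826, 1.03, 5.39 and 0.536 CPM in BT474 (log2 fold change 9.78, SE 0.84, adjusted p = 0.000197), with BT474 day 20 replicate 1 the highest of its line. IGFBP5 had 0.144, 0.109, 1.31 and 1.20 CPM in HCC1806 and 5874, 5969, 5338 and 5691 CPM in BT474 (log2 fold change -13.06, SE 0.59, adjusted p = 7e-06). TCN1, which encodes a secreted cobalamin carrier, had 1.56, 1.58, 1.04 and 0.725 CPM in HCC1806 and 5159, 4896, 5635 and 6549 CPM in BT474 (log2 fold change -12.14, SE 0.26, adjusted p = 4.5e-09).

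Genes of position and germline also differed. The 11 adjacent tested protein-coding HOXA genes on chromosome 7 were higher, with a median of 8.49 (6.29 with genes at 0 counts set to their bound), HOXA10 averaging 18.2 ± 1.85 CPM in HCC1806 and 0.233 ± 0.0541 CPM in BT474. HOXB13 was lower and averaged 10.2 ± 2.92 CPM in HCC1806 and 94.5 ± 4.99 CPM in BT474, and HOXB7 26.6 ± 1.37 CPM in HCC1806 and 71.7 ± 3.71 CPM in BT474. Over all 38 HOX genes tested 22 were higher and 8 lower. The 9 HOX genes at 0 counts in BT474 could only be called higher. Of 30 listed cancer-testis antigens 29 were found in the data and 16 were tested, 14 higher and MAGEC1 lower. Of these 16, 11 had 0 counts in BT474 and 1 had 0 counts in HCC1806. Each of those passed the count filter only through the other line, so its direction was fixed beforehand. MAGEA4 had 139.8, 132, 119 and 124 CPM in HCC1806 and 0 counts in BT474, at least 7810-fold higher. It opens a set of 13 adjacent higher genes on chromosome X that ends with MAGEA6 (151912509 to 152769747), in which MAGEA2, MAGEA3, MAGEA6 and MAGEA12 are near-identical. RIC8A, a chaperone of G protein alpha subunits that most cells express, had 0 counts in HCC1806 and 93.7, 103, 98.0 and 90.9 CPM in BT474, at least 5031-fold lower.

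**Figure D4:**
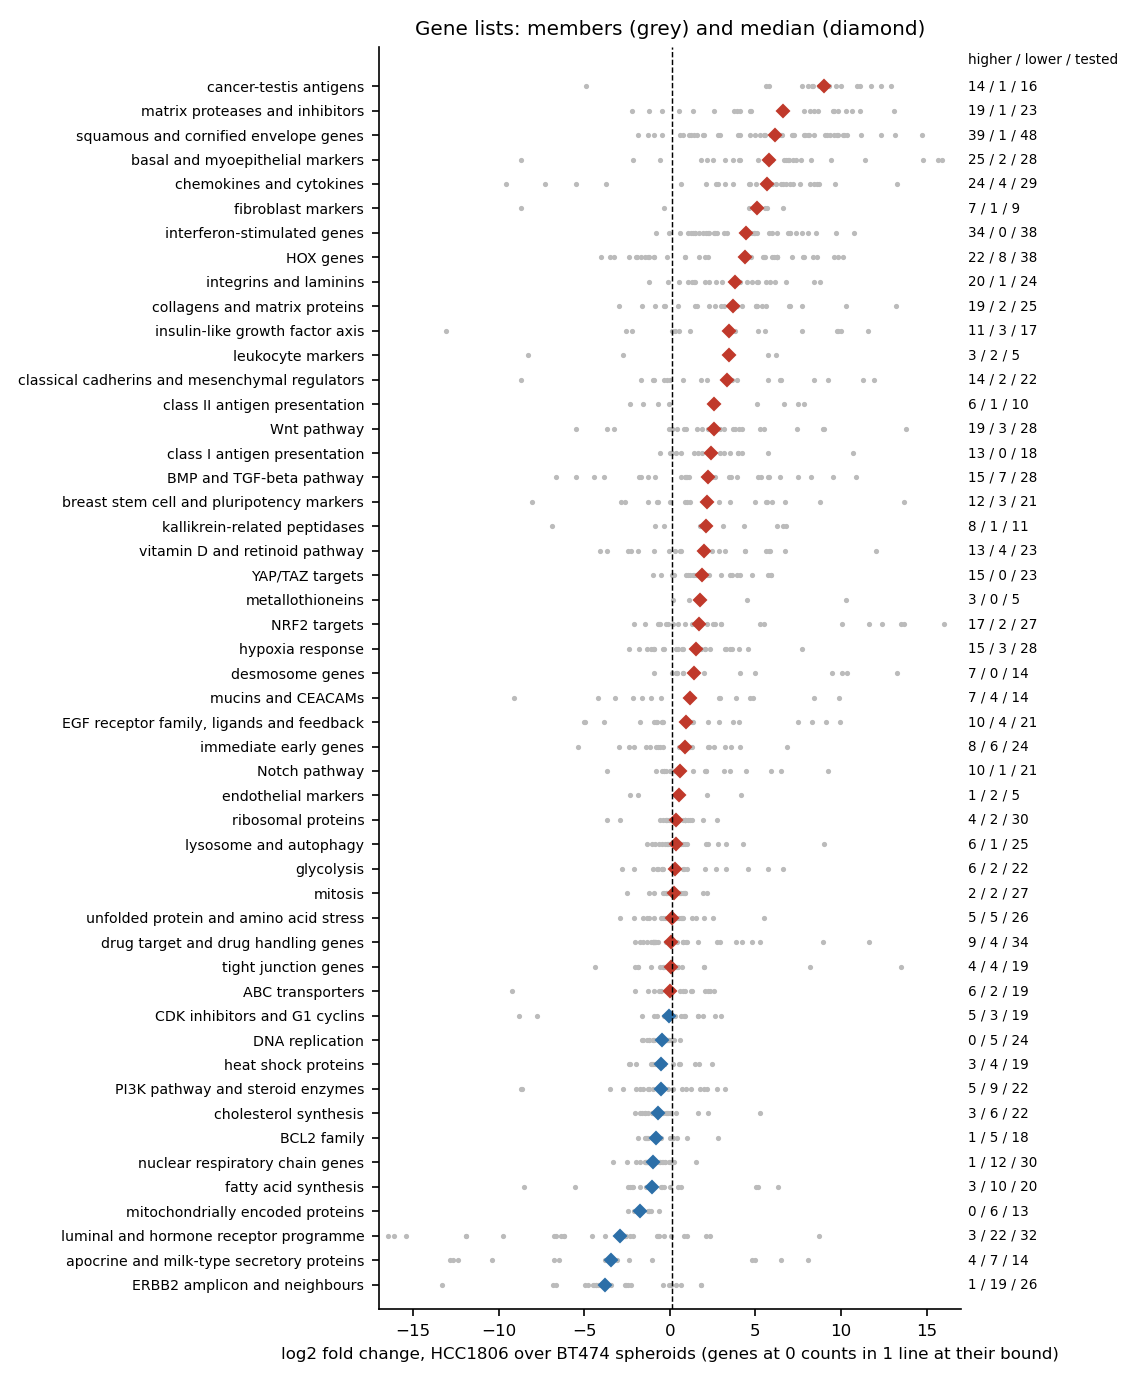
Log2 fold change of HCC1806 over BT474 spheroids for the gene lists reported here, grey points being tested members and diamonds the list median, with members at 0 counts in 1 line set to their bound; the dashed line is the median over all tested genes (0.10). Numbers at the right are members higher, lower and tested, called beyond 2-fold. Cancer-testis, protease, squamous, basal and cytokine lists lie at the top, and luminal, apocrine, mitochondrial and ERBB2 amplicon lists at the bottom.

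Markers of stromal and blood cells were mostly low in both lines. PTPRC, CD3E, CD68, CDH5 and PDGFRA did not pass the count filter. Of 9 fibroblast markers tested 7 were higher and 1 lower in HCC1806, but DCN averaged 0.608 CPM and LUM 2.58 CPM in HCC1806 and 0 and 0.0208 CPM in BT474. The 4 fibroblast markers at 0 counts in BT474 could only be called higher. COL1A1 was the exception in level, with 74.8 ± 11.1 CPM in HCC1806 and 93.4 ± 10.8 CPM in BT474. Among 5 leukocyte markers tested LYZ averaged 0.0634 ± 0.0598 CPM in HCC1806 and 21.5 ± 4.52 CPM in BT474 and CD14 1.79 ± 0.640 CPM in HCC1806 and 0.0376 ± 0.0751 CPM in BT474. Of the leukocyte markers 3 were higher and 2 lower. Of 5 endothelial markers tested 1 was higher, 2 without HCC1806 day 10 replicate 2, and 2 were lower. Endothelial VWF averaged 1.42 ± 0.543 CPM in HCC1806 and 6.92 ± 0.878 CPM in BT474. Their part in the differences above was not tested.

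Along the genome the direction varied by chromosome. Median fold changes were lowest for the mitochondrial genome (-1.73), chromosome 18 (-0.78), chromosome 14 (-0.50), chromosome 7 (-0.43) and chromosome X (-0.37), and highest for chromosome 13 (0.49), chromosome 10 (0.48) and chromosome 1 (0.37). Among 744 non-overlapping runs of 20 neighbouring tested protein-coding genes the 5th and 95th percentiles of the run medians were -1.30 and 1.53. The lowest runs were FBXL20 to NR1D1 (-4.14) and TBC1D3E to STAC2 (-3.42) on chromosome 17, PFDN4 to NPEPL1 on chromosome 20 (-2.41), SKA2 to INTS2 on chromosome 17 (-2.33) and LRRC61 to AGAP3 on chromosome 7 (-2.25). The run on chromosome 20 holds AURKA, TFAP2C and BMP7. Among the highest runs were LCE1F to PRR9 on chromosome 1 (9.29), MTM1 to CETN2 on chromosome X (7.85), RELCH to CDH19 on chromosome 18 (6.37) and KRT86 to IGFBP6 on chromosome 12 (5.78), the last being the type II keratin cluster. With genes at 0 counts set to their bound these medians were 7.22 on chromosome 1, 6.09 on chromosome X, 4.09 on chromosome 18 and 5.78 on chromosome 12, so the chromosome 18 run then stood below that on chromosome 12. Expression alone does not give DNA copy number, which was not measured here.

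The line difference held at either day for most genes. At day 10 alone 14874 genes were called (73.4%), 38.7% higher and 34.7% lower in HCC1806, and at day 20 alone 14958 (73.8%), 39.8% higher and 34.1% lower. Of these 13347 were called at both days in the same direction and 58 in opposite directions. A direct test of the change found 1167 genes (5.76%) whose line difference moved between the days, 659 upward (3.25%) and 508 downward (2.51%), where upward means towards HCC1806 at day 20. HCC1806 had the larger day shift for 896 of the 1167 and BT474 for 271. Over all genes the median absolute log2 day shift was 0.164 in HCC1806 and 0.113 in BT474. Counts of this test depended on single libraries: without BT474 day 10 replicate 2 they were 348 and 278, without BT474 day 20 replicate 2 380 and 261, and without BT474 day 10 replicate 1 454 and 234.

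Cholesterol synthesis genes moved together between the days. Of 22 members 15 changed upward and 0 downward, with 12 to 15 upward when any 1 library was left out. HMGCS1, which makes the precursor of mevalonate, averaged 105 CPM at day 10 and 149 CPM at day 20 in HCC1806, and 410.2 CPM at day 10 and 274 CPM at day 20 in BT474 (log2 change of the difference 1.09, SE 0.15, adjusted p = 0.00147). SQLE, squalene epoxidase, averaged 143 CPM at day 10 and 211 CPM at day 20 in HCC1806, and 161 CPM at day 10 and 114 CPM at day 20 in BT474 (1.06, SE 0.13, adjusted p = 0.00032), and STARD4, a sterol carrier, 25.0 CPM at day 10 and 37.5 CPM at day 20 in HCC1806, and 9.29 CPM at day 10 and 4.41 CPM at day 20 in BT474 (1.66, SE 0.18, adjusted p = 8.6e-05). Values were higher at day 20 than at day 10 in HCC1806 and lower in BT474 for all 15 genes. HMGCS1 was lower in HCC1806 at both days, by less at day 20.

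Hypoxia-response genes had 9 members changing upward and 0 downward, and 6 to 11 upward without any 1 library. VEGFA, the angiogenic growth factor, had 193, 257, 479 and 489 CPM in HCC1806 and 104, 116, 100.1 and 88.2 CPM in BT474 (1.33, SE 0.18, adjusted p = 0.00372). EGLN3, an oxygen-sensing hydroxylase, averaged 7.96 CPM at day 10 and 29.8 CPM at day 20 in HCC1806, and 53.7 CPM at day 10 and 57.6 CPM at day 20 in BT474 (1.81, SE 0.20, adjusted p = 0.00028). LOX, the collagen crosslinking oxidase, averaged 5.27 CPM at day 10 and 17.3 CPM at day 20 in HCC1806, and 0.891 CPM at day 10 and 0.734 CPM at day 20 in BT474 (2.01, SE 0.42, adjusted p = 0.0115). Without BT474 day 10 replicate 2 the change of LOX was not called (1.94). In BT474 none of these 3 genes moved as far between the days as in HCC1806, and the same held for BNIP3. The other called members, NDRG1, EPAS1, ADM, P4HA2 and SLC2A1, fell further in BT474 than they moved in HCC1806. The log2 ratio of day 20 over day 10 was 0.02 in HCC1806 and -1.06 in BT474 for NDRG1. For EPAS1, which fell in both lines, it was -0.29 in HCC1806 and -0.74 in BT474. The pooled line difference of VEGFA, called with both days (1.69), lost its call at 2-fold at day 10 alone (1.01) and in 5 of 8 fits without 1 library, and that of EGLN3 (-1.81) was lost at day 20 alone (-0.96) and in 6 of 8.

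Among NRF2 targets, lysosome genes and interferon-stimulated genes more members were called downward than upward, and most were not called. NRF2 targets had 6 downward and 1 upward changes of 27, though 2 downward without BT474 day 10 replicate 1 and 3 without BT474 day 20 replicate 2. NQO1 averaged 181 CPM at day 10 and 127 CPM at day 20 in HCC1806, and 200.5 CPM at day 10 and 249 CPM at day 20 in BT474 (-0.82, SE 0.10, adjusted p = 0.000164), and CYP1B1, a hydroxylase of oestrogens, 564 CPM at day 10 and 278 CPM at day 20 in HCC1806, and 43.2 CPM at day 10 and 59.5 CPM at day 20 in BT474 (-1.48, SE 0.16, adjusted p = 0.000354). Lysosome genes had 6 downward and 1 upward of 25, and 3 downward without BT474 day 10 replicate 1; CTSD, cathepsin D, averaged 293 CPM at day 10 and 158 CPM at day 20 in HCC1806, and 128 CPM at day 10 and 127 CPM at day 20 in BT474 (-0.88, SE 0.10, adjusted p = 0.000128). Interferon-stimulated genes had 7 downward and 2 upward of 38, and 3 and 4 downward without BT474 day 10 replicate 1 or BT474 day 20 replicate 2. Mitosis genes had 5 downward and 0 upward of 27, 11 without HCC1806 day 20 replicate 1 and 3 without BT474 day 10 replicate 2; BIRC5, survivin, averaged 124 CPM at day 10 and 84.6 CPM at day 20 in HCC1806, and 65.1 CPM at day 10 and 75.7 CPM at day 20 in BT474 (-0.77, SE 0.11, adjusted p = 0.000518).

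Squamous genes changed upward for 9 of 48 tested and downward for 1, and upward for 4 without BT474 day 10 replicate 2. KRT10 averaged 84.6 CPM at day 10 and 209 CPM at day 20 in HCC1806, and 44.2 CPM at day 10 and 45.7 CPM at day 20 in BT474 (1.25, SE 0.09, adjusted p = 1.6e-06), and ZNF750, a regulator of epidermal differentiation, 12.6 CPM at day 10 and 30.6 CPM at day 20 in HCC1806, and 8.84 CPM at day 10 and 8.09 CPM at day 20 in BT474 (1.41, SE 0.19, adjusted p = 0.000394). CALML5 was the downward one, averaging 120.4 CPM at day 10 and 103 CPM at day 20 in HCC1806, and 53.9 CPM at day 10 and 96.8 CPM at day 20 in BT474 (-1.08, SE 0.14, adjusted p = 0.000784). KRT1, CXCL14 and FABP4 also had higher HCC1806 values at day 20, with BT474 at trace level or 0, but the change of their difference was not called. YAP/TAZ targets changed upward for 7 of 23 and downward for 0, and upward for 3 without BT474 day 10 replicate 2. Of 32 luminal and hormone receptor genes tested 6 changed upward and 5 downward. Upward calls numbered 2 without BT474 day 10 replicate 2 and 3 or 4 without any other library, and downward calls 5 or 6. Among the downward ones FOXA1 averaged 101 CPM at day 10 and 40.8 CPM at day 20 in HCC1806, and 393 CPM at day 10 and 388 CPM at day 20 in BT474 (-1.28, SE 0.09, adjusted p = 1.2e-06) and AGR2, a secretory pathway isomerase, averaged 251 CPM at day 10 and 89.3 CPM at day 20 in HCC1806, and 239 CPM at day 10 and 227 CPM at day 20 in BT474 (-1.41, SE 0.09, adjusted p = 4.8e-07).

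**Figure D5:**
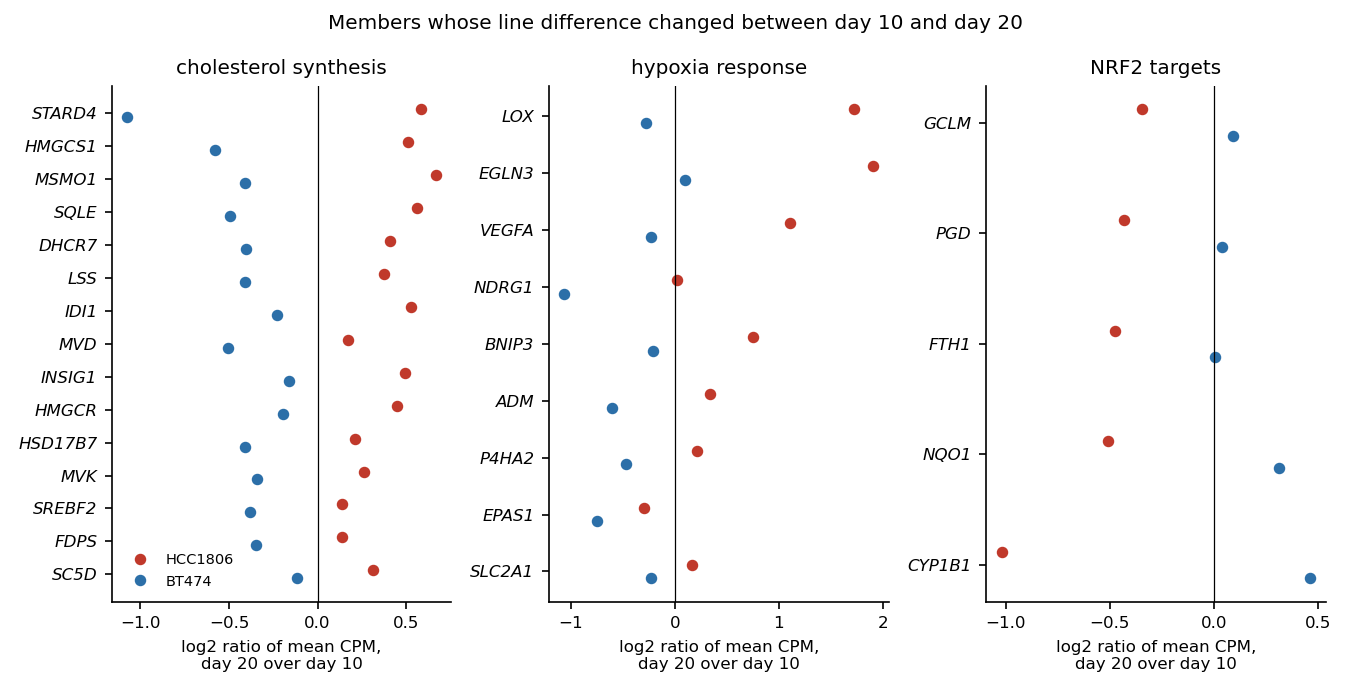
Log2 ratio of mean CPM at day 20 over day 10 within HCC1806 (red) and BT474 (blue) for the called members reported here of the cholesterol, hypoxia and NRF2 lists with a mean of at least 0.5 CPM in all 4 groups. All 15 cholesterol genes have HCC1806 above 0 and BT474 below 0, while the 5 NRF2 targets shown have HCC1806 below 0.

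Further single genes changed between the days. PLA2G2A, a secreted phospholipase, had 1.73, 1.91, 35.3 and 44.4 CPM in HCC1806 and 54.1, 61.3, 18.7 and 18.4 CPM in BT474 (6.09, SE 0.19, adjusted p = 1.8e-10). It was lower in HCC1806 at day 10 and higher at day 20, and its pooled difference (-1.54) was not called beyond 2-fold. APCDD1, a Wnt inhibitor, averaged 1.61 CPM at day 10 and 16.4 CPM at day 20 in HCC1806, and 6.20 CPM at day 10 and 4.87 CPM at day 20 in BT474 (3.69, SE 0.26, adjusted p = 1.2e-06), also lower in HCC1806 at day 10 and higher at day 20. NPR3, a natriuretic peptide clearance receptor, averaged 0.974 CPM at day 10 and 5.18 CPM at day 20 in HCC1806, and 34.6 CPM at day 10 and 26.5 CPM at day 20 in BT474 (2.78, SE 0.22, adjusted p = 3.2e-06), and TENM2, a teneurin, 21.8 CPM at day 10 and 128 CPM at day 20 in HCC1806, and 10.0 CPM at day 10 and 8.88 CPM at day 20 in BT474 (2.72, SE 0.30, adjusted p = 0.00247). Downward changes included TMPRSS4, a membrane serine protease, with 278 CPM at day 10 and 117 CPM at day 20 in HCC1806, and 1.14 CPM at day 10 and 2.80 CPM at day 20 in BT474 (-2.47, SE 0.20, adjusted p = 7.2e-06), and CEACAM6, a surface adhesion protein, with 23.5 CPM at day 10 and 6.78 CPM at day 20 in HCC1806, and 41.2 CPM at day 10 and 38.7 CPM at day 20 in BT474 (-1.71, SE 0.16, adjusted p = 2.4e-05).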

How the data were processed

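RNA sequencing of polyadenylated RNA, as paired reads, was compared between 4 HCC1806 and 4 BT474 spheroid libraries. The deposited table holds raw counts per gene and FPKM values, both made by the authors. HISAT2 2.2.1, featureCounts 2.0.6 and GRCh38 are named in the submitters' processing notes; strand setting and treatment of multiply mapped reads are not given in the sources used here, so overlapping, antisense and near-identical genes are uncertain.

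Counts were tested with edgeR 4.0.16 (R 4.3.3): TMM scaling, filterByExpr with a minimum count of 10 and total of 15, and the robust quasi-likelihood F test with line and day as terms. glmTreat tested against 2-fold. A fit of the 4 groups gave the difference at each day and its change between the days. Benjamini-Hochberg adjusted p under 0.05 was called, over all 20258 genes. Low counts were even more often than odd (1.51 to 1.73 even per odd), so halved counts were an alternative. Values are means ± SD over n = 4 libraries of a line, days pooled. FPKM served to compare levels between genes and, as log2(FPKM + 0.1), for limma 3.58.1; DESeq2 1.42.0 was a further alternative. A fold against 0 counts was computed against 3 counts over the group. Scripts were tested on simulated data.

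Named genes were the 12 highest and 12 lowest fold changes and the 10 most abundant called genes per line (protein-coding, beyond 2-fold, at least 5 CPM in the higher line, no overlap), the 8 highest and 8 lowest changes between days (at least 5 CPM in 1 group), up to 4 called members per list and direction, and a panel of 25. Added after values were seen were 6 changes per direction among genes with at least 1 CPM, before normalisation, in all 4 groups, and further list members. Members, the 51 lists, and the motifs were chosen with earlier results of these data known. Promoters are from RefSeq. Some named genes and 1 list are not reported here.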

Additional observations from a re-analysis of the deposited data

Results flagged for a closer look

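BT474 day 10 replicate 2 was the deepest library, with 72489002 counts, against 38230329 to 42029519 in the other 3 BT474 libraries. The threshold used for such a gap is passed by about 1 in 20 groups by chance. Leaving this library out lowered the counts of changes between the days.

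The line difference changed between day 10 and day 20 for 659 genes upward and 508 genes downward, by the direct test of the change. Among the named genes, 15 with large fitted changes were under 1 CPM in every library of one line, so few counts set the value. Downward these were HOXA7 (-6.06), THEMIS2 (-5.82), ZNF681 (-5.48), ARHGEF38 (-5.33), KCNJ15 (-4.86), COL8A2 (-4.82), OTULINL (-4.01) and PLEKHS1 (-3.53). Upward they were AKR1C1 (5.38), LMCD1 (5.64), CLEC2B (5.96), STAC2 (6.46), SYNPO2L (6.75), ABCC8 (7.03) and SLC24A3 (7.20). Of these 15 calls 11 were lost when 1 library was left out. Calls were lost for HOXA7 and THEMIS2 without BT474 day 10 replicate 2 (-5.93 and -5.69) or BT474 day 20 replicate 2 (-5.31 and -5.64). LMCD1 lost its call without HCC1806 day 10 replicate 1 (5.59) or 2 (5.61). AKR1C1 lost its call without BT474 day 10 replicate 2 (4.99) or either BT474 day 20 library (5.41 and 5.41). COL8A2 lost its call without any 1 of the 4 BT474 libraries (-4.86 to -4.70). SLC24A3 lost its call without any BT474 library except day 10 replicate 1, or without HCC1806 day 10 replicate 1 (7.02 to 7.25). PLEKHS1 lost its call without replicate 2 of any of the 4 groups (-3.34 to -2.57). SYNPO2L lost its call without any HCC1806 library except day 20 replicate 2, or without BT474 day 20 replicate 2 (5.13 to 6.72). KCNJ15 lost its call without any BT474 library or HCC1806 day 10 replicate 1 (-5.15 to -4.55). CLEC2B lost its call without any BT474 library except day 10 replicate 1, or without either HCC1806 day 10 library (3.97 to 6.05). ZNF681 lost its call without any HCC1806 or either BT474 day 10 library (-5.57 to -5.31).

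By level, SLC24A3 had 0, 0, 0.683 and 0.175 CPM in HCC1806 and 29.5, 31.6, 29.0 and 30.1 CPM in BT474. AKR1C1 had 805, 891, 878 and 816 CPM in HCC1806 and 0.10, 0.133, 0 and 0 CPM in BT474.

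Further changes came from genes with at least 1 CPM, before normalisation, in all 4 groups. Downward they were TMPRSS4 (-2.47), CEACAM6 (-1.71), MUC20 (-1.65), DUSP4 (-1.63), MAN1A1 (-1.56) and VILL (-1.51). MAN1A1 lost its call without any HCC1806 library except day 20 replicate 2, or without either BT474 day 10 library (-1.7 to -1.4). MUC20, a mucin, had 132, 121, 39.3 and 35.9 CPM in HCC1806 and 4.46, 5.66, 4.95 and 4.61 CPM in BT474. Upward they were LOXL4 (2.53), TENM2 (2.72), NPR3 (2.78), PLXDC2 (2.93), APCDD1 (3.69) and PLA2G2A (6.09). PLA2G2A, a secreted phospholipase, had at least 1.73 CPM in every library. LOXL4, a relative of LOX, had 2.91, 2.94, 14.4 and 15.1 CPM in HCC1806 and 212, 255, 185 and 221 CPM in BT474.

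List members described above passed the same test. Upward these were VEGFA (1.33), EGLN3 (1.81), LOX (2.01), STARD4 (1.66), HMGCS1 (1.09), SQLE (1.06), KRT10 (1.25) and ZNF750 (1.41). Downward they were FOXA1 (-1.28), AGR2 (-1.41), NQO1 (-0.82), CYP1B1 (-1.48), BIRC5 (-0.77), CALML5 (-1.08) and CTSD (-0.88).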

How the results depend on the processing

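Counts of genes higher and lower in HCC1806, at any size, beyond 2-fold and at each day, stayed within 1.5 times under all alternatives run. Genes higher ranged from 6654 to 9186 and genes lower from 6324 to 8041; beyond 2-fold they ranged from 3667 to 5628 and from 2612 to 3981. The change between the days was less stable. Upward calls numbered 1043 with no count filter and 423 with limma on log2 FPKM, against 659, and 348 to 686 with 1 library left out. Downward calls numbered 820 with DESeq2, against 508, and 234 to 652 with 1 library left out. The lowest counts came without BT474 day 10 replicate 1, BT474 day 10 replicate 2 or BT474 day 20 replicate 2. Without 1 library a group holds a single sample, assumed to vary like the other groups. KCNJ15 and COL8A2 changed sign under limma on log2 FPKM (0.49 and 0.11). The cause was not tested. Of 387 gene results beyond 2-fold, DESeq2 lost 12 and limma 31; of 42 changes, halved counts lost 7, limma lost 12 and reversed 2, and leaving out 1 library lost 2 to 11, the most without BT474 day 10 replicate 2. List medians close to 0 changed sign for tight junction genes, CDK inhibitors, ABC transporters and the unfolded protein list under at least 1 alternative. With a filter of 1 CPM in 4 libraries, which tests fewer genes, the medians of the mucin (-0.81), fibroblast (-0.34), endothelial (-2.11) and leukocyte (-8.31) lists turned negative. Halved counts also turned the mucin (-0.54) and endothelial (-0.72) medians negative. The endothelial median was negative at day 10 alone (-0.36) and at day 20 alone (-1.04) as well. A count of 0 allows up to 3 counts, 0.0443 to 0.0820 CPM depending on the library.

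With the replicate number as a block, 8381 genes were higher and 7347 lower, 5073 and 3515 beyond 2-fold, and 604 and 435 changed upward and downward. Deviations of same-numbered libraries correlated between -0.0497 and 0.0435 over all genes tested. Noisy low-count genes weigh as much as others in these values, so they cannot exclude a shared culture or batch. Every count stayed within 1.5 times.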

Other observations

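Vitamin D and retinoid genes were mostly higher in HCC1806: of 23 tested, 13 were higher and 4 lower beyond 2-fold by edgeR's glmTreat, with a median of 1.99, against 25.3% and 17.5% of all genes. CYP24A1, the enzyme that inactivates vitamin D, had 36.8, 33.6, 131 and 61.9 CPM in HCC1806 and 2 counts in all BT474 libraries, a ratio of 5880 (exact 95% interval 1627 to 48558). VDR, the vitamin D receptor, was lower and averaged 17.5 ± 1.41 CPM in HCC1806 and 84.6 ± 2.00 CPM in BT474 (SD, n = 4 each; log2 -2.28 ± 0.07 SE, adjusted p = 8.1e-10). CRABP2, a retinoic acid carrier, was lower as well, with 14.7 ± 4.26 CPM in HCC1806 and 182 ± 29.8 CPM in BT474. STRA6, the retinol transporter, was higher, with 4.70 ± 1.02 CPM in HCC1806 and 0.0785 ± 0.0855 CPM in BT474.

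Immediate early genes, which respond within minutes to growth signals, split: of 24 tested, 8 were higher and 6 lower. EGR1, a zinc finger factor, averaged 72.7 ± 9.02 CPM in HCC1806 and 6.13 ± 1.70 CPM in BT474, and FOSL1, an AP-1 subunit, 14.4 ± 3.07 CPM in HCC1806 and 0.111 ± 0.0903 CPM in BT474. NR4A1, an orphan nuclear receptor, was lower, with 7.23 ± 0.293 CPM in HCC1806 and 37.8 ± 2.23 CPM in BT474. Mucins and CEACAM genes split too, 7 higher and 4 lower of 14. MUC15 had 13.4, 14.2, 15.6 and 18.6 CPM in HCC1806 and 0 counts in BT474. MUC5B, a secreted gel-forming mucin, was lower, with 0.169 ± 0.182 CPM in HCC1806 and 92.9 ± 19.8 CPM in BT474. MUC16, which carries the CA125 antigen, had 218, 77.3, 38.4 and 22.5 CPM in HCC1806 and 0.0501, 0.192, 0.164 and 0.669 CPM in BT474, so its HCC1806 libraries spread widely.

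Of 22 genes of the PI3K pathway and steroid enzymes 5 were higher and 9 lower. PIK3R3, a regulatory subunit of PI3K, averaged 18.9 ± 0.467 CPM in HCC1806 and 217 ± 20.5 CPM in BT474. HSD17B4, a peroxisomal enzyme of fatty acid oxidation, had 0.345 ± 0.0878 CPM in HCC1806 and 138 ± 7.71 CPM in BT474. SGK1, a kinase related to AKT, was higher, with 81.0 ± 8.50 CPM in HCC1806 and 20.4 ± 3.56 CPM in BT474.

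Metallothioneins, small proteins that bind zinc and copper, were higher for 3 and lower for 0 of 5 tested. The 2 members at 0 counts in BT474 could only be called higher. MT2A averaged 47.3 ± 6.79 CPM in HCC1806 and 14.5 ± 4.49 CPM in BT474. Heat shock proteins were mixed, 3 higher and 4 lower of 19. HSPB1, a small heat shock protein, was lower, with 701 ± 84.8 CPM in HCC1806 and 3718 ± 404 CPM in BT474, and BAG3, a partner of HSP70, was higher, with 131 ± 16.5 CPM in HCC1806 and 40.5 ± 5.59 CPM in BT474. Between the days 6 heat shock genes changed upward and 1 downward, with 3 or 4 upward and 0 to 2 downward without any 1 library. Of 26 unfolded protein and amino acid stress genes 5 were higher and 5 lower, of 25 lysosome and autophagy genes 6 were higher and 1 lower, of 19 CDK inhibitors and G1 cyclins 5 were higher and 3 lower, and of 22 classical cadherins and mesenchymal regulators 14 were higher and 2 lower.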
